A study of Homo sapiens with 28 samples.

Results

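10 genes of Wnt signaling were followed across 28 RNA-seq libraries of 2 MLL-rearranged leukemia cell lines in which the RNA-binding protein MBNL1 was depleted. The 10 genes are CCDC88C, LRRFIP2, NKD2, DVL1, DVL3, GSK3A, GSK3B, CTNNB1, AXIN1 and TCF7L2, out of 22391 genes with an expression value. They were taken by name: CCDC88C, LRRFIP2 and NKD2 were selected on the changes they show in these same libraries, so their values are given as a description with no test, and the other 7 were added as pathway partners. Expression is in RPKM, reads scaled to transcript length and to the mapped reads of the library. Splicing is in PSI, percent spliced in, the percentage of junction reads in a local comparison that use the form named. The 10 genes held 97 of the 100814 PSI rows, in 31 of 29031 junction clusters, a cluster being a set of junctions that share ends. Of these 97 rows 83 were measured in at least 1 library and 66 could be tested in at least 1 comparison. DVL3 had no PSI row.

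MOLM13 cells, an acute myeloid leukemia line with an MLL-AF9 fusion, and MV4;11 cells, a line with an MLL-AF4 fusion, were transduced with lentiviral hairpins and selected with puromycin. The knockdown groups carried hairpin sh64 or sh65 against MBNL1 and the controls carried the non-targeting hairpin shNT, so all cells went through transduction and selection. The groups were MOLM13 sh64 and its shNT (3 libraries each, day 4 by the methods), MOLM13 sh65 (4) and a second set of MOLM13 shNT (3), MV4;11 sh64 (3), sh65 (3) and the shNT that serves both hairpins (3), and MOLM13 sh64 and its shNT at day 12 (3 each). No day was found for sh65 or for MV4;11. No label names the control of MOLM13 sh65, and the second shNT set was used because it shares the wording of its treatment. The numbers of libraries in the methods differ from the labels for MOLM13 shNT and for MV4;11 sh65 and shNT, and the labels were followed. The day 12 libraries are described as biological triplicates. Nothing says that the others came from separate cultures, so for them the spread behind a p-value may be technical. Total read numbers are not in the files. The spacing of the lowest RPKM values put the depth of the libraries between 0.469 and 1.68 times the median library, with 69381 to 83195 PSI rows measured per library, and the number of junction reads behind each PSI value is unknown.

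Wnt signaling runs from secreted ligands through Frizzled and LRP receptors to Dishevelled, a cytoplasmic scaffold encoded by the DVL genes. When Dishevelled is active, it disables a destruction complex built on AXIN1 and APC in which the kinases GSK3A and GSK3B mark β-catenin, the product of CTNNB1, for degradation. Stabilized β-catenin enters the nucleus and acts with TCF factors such as TCF7L2. CCDC88C, also called Daple, and LRRFIP2 bind Dishevelled, and NKD2 is a Dishevelled-binding antagonist. Wnt and β-catenin signaling is known for its part in self-renewal of MLL-rearranged leukemia cells. MBNL1 binds RNA at short YGCY motifs (Y is C or U) and regulates inclusion of nearby exons.

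The targeted gene was lower in every hairpin library than in every library of its shNT set. MBNL1 RPKM was 14.4% of shNT with sh64 in MOLM13 at day 4, 16.6% with sh64 in MV4;11 and 16.7% with sh64 at day 12. With sh65 it was 67.3% of shNT in MOLM13 and 53.3% in MV4;11, so sh65 removed less of the transcript. MBNL1 RPKM in the 4 MOLM13 sh65 libraries was 8.26, 13.1, 14.3 and 15.4. MBNL2 and MBNL3, the other members of the family, averaged under 1 RPKM in every group. Of 9 myeloid marker genes, 8 were at or above 1 RPKM in all 9 groups, and CEBPA was under 1 in all. CD3D, a T cell receptor component, was above 1 in 6 groups, while CD3E, another, was under 1 in all 9. The summed RPKM of the myeloid markers was 4153 to 4304 with sh64 against 1595 to 1921 with shNT at day 4, and 4073 to 4342 with sh64 against 1138 to 1293 with shNT at day 12. It was 1128 to 1238 with sh65 against 1164 to 3440 with shNT in MOLM13, and in MV4;11 1736 to 1870 with sh64 and 1116 to 1168 with sh65 against 2167 to 3147 with shNT. In bulk RNA a shift in cell state, fewer cells of a kind and less RNA per cell cannot be told apart, and the part of these shifts in the values below was not tested.

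The name under which these genes were grouped, Wnt regulators with MBNL1-dependent exons, describes only part of them, and dependence on MBNL1 itself was not tested. Large exon changes were present in CCDC88C and LRRFIP2, which were selected on their changes. In DVL1 smaller splicing changes were called, by the rule given below, with sh64 in MOLM13 only. In the other genes with tested rows no change exceeded 12.8 points, and no row of TCF7L2 could be tested. The sequences around the 3 sites are given first because the values that follow are about them. They are from GRCh37 (hg19), on the minus strand, 5′ to 3′, and capitals mark the motif searched, YGCY (GC with a C or T on either side), on the transcribed strand only because MBNL1 binds RNA.

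The CCDC88C exon spans 442 bases at chr14:91751739-91752180. It is in 1 of the 2 coding transcripts that span it (CCDC88C-210, which is not the principal transcript of the annotation), where its first 164 bases are coding. A stop codon then closes the reading frame, 278 further bases of the exon are not translated and 5 more exons follow. The LRRFIP2 exon spans 72 bases at chr3:37132958-37133029, keeps the reading frame and is in 4 of 6 coding transcripts, the principal one included. The DVL1 site is a pair of alternative 5′ splice sites, the downstream one of which lengthens a coding exon by 75 bases in frame, at chr1:1274667-1274741, as in 2 of 4 coding transcripts, the principal one among them. The first sequence holds 100 bases of intron and the 164 coding bases of the CCDC88C exon (chr14:91752017-91752280), the second the first 100 bases of the intron after it (chr14:91751639-91751738), the third the LRRFIP2 exon with 100 bases on either side (chr3:37132858-37133129), and the last the end of the shorter DVL1 exon, its extension and 100 bases of intron (chr1:1274567-1274819).
CCDC88C upstream intron and coding part of the exon: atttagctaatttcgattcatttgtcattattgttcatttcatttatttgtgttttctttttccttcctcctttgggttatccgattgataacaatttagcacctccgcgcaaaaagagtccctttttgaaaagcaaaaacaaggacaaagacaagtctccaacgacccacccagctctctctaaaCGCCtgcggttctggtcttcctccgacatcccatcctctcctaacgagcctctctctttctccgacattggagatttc
CCDC88C downstream intron: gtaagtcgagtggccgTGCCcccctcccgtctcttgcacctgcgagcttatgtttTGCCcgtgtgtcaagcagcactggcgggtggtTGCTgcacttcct
LRRFIP2 exon with its flanks: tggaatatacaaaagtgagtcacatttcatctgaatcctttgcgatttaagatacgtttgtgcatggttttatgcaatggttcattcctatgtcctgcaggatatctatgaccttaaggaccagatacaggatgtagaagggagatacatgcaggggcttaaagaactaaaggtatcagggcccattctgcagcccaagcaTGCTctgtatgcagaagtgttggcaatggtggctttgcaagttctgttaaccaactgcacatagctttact
DVL1 exon, extension and intron: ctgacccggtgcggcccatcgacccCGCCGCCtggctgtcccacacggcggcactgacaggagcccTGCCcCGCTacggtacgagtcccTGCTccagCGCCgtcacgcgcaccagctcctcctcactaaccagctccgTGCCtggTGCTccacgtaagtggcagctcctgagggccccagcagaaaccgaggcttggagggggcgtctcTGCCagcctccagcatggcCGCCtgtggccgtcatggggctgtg

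Downstream of the CCDC88C exon 3 motifs lay within 100 bases, upstream none, and 1 in its coding part. Of 10482 such downstream windows of cassette exons in the series 65.7% held at least 1 motif and 14.3% held as many as 3. For LRRFIP2 the downstream window held 1 motif, and the exon and the upstream window none, where 65.7% of 10296 upstream windows held at least 1. The 75-base DVL1 extension held 4 motifs and the intron after it 2, a number reached by 31.9% of downstream windows. These are matches of letters and say nothing of binding.

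Inclusion of the CCDC88C exon was nearly lost with sh64 in both lines. In MOLM13 at day 4 PSI was 2.70, 3.39 and 0% with sh64 against 92.5, 97.1 and 80.0% with shNT, a change of -87.8 ± 4.9 percentage points (± standard error of the fit). In MV4;11 it was 0, 10.0 and 5.41% with sh64 against 91.3, 95.9 and 97.9% with shNT (-89.9 ± 3.3 points). At day 12 it was 2.59, 3.65 and 1.96% with sh64 against 91.7, 94.9 and 100% with shNT (-92.8 ± 2.3 points). Over these 3 comparisons the highest sh64 library stood at 10.0% and the lowest shNT library at 80.0%. With sh65 the exon took intermediate values that differed widely among libraries. PSI was 28.4, 48.8, 78.0 and 81.2% with sh65 in MOLM13 against 89.8, 100 and 97.5% with shNT (-36.7 ± 14.5 points), and 60.0, 45.7 and 66.7% with sh65 in MV4;11 against the same shNT libraries as above (-37.6 ± 6.2 points). The MOLM13 sh65 library with the least MBNL1 (8.26 RPKM) also had the lowest inclusion, and the one with the most (15.4 RPKM) the highest, a description over 4 libraries. Leaving out 1 library at a time, the MOLM13 sh65 change ranged between -44.1 and -26.4 points.

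**Figure D1:**
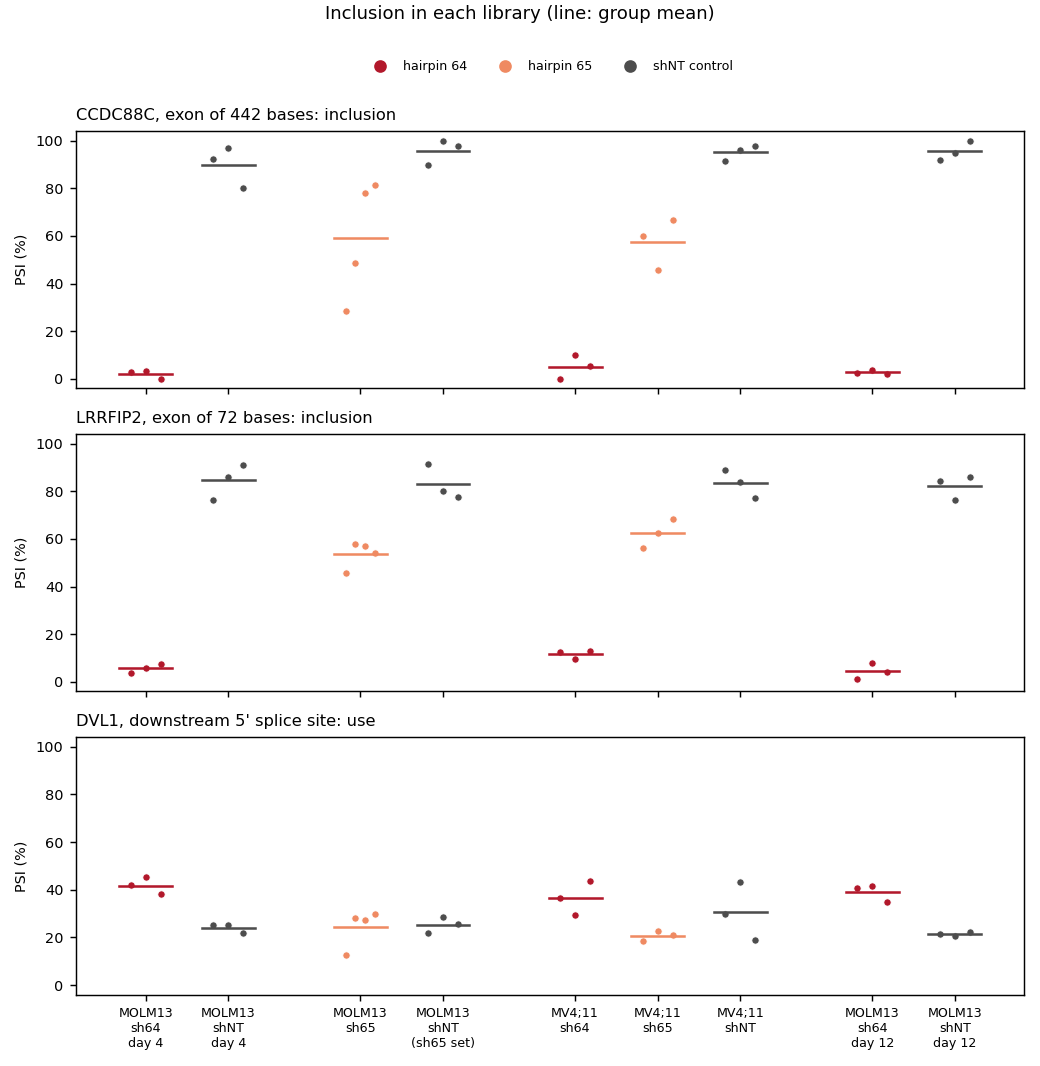
PSI in percent (vertical axis) of the CCDC88C exon, the LRRFIP2 exon and the downstream DVL1 5′ splice site in each of the 28 libraries, by group; points are libraries and lines group means. In the upper panels sh64 libraries lie at 13.1% or less, sh65 libraries between 28.4 and 81.2%, and shNT libraries at 76.2% or more; in the DVL1 panel sh64 libraries lie above shNT in MOLM13 at both days and overlap with shNT in MV4;11.

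By size, the CCDC88C change ranked 5 of 71848 tested rows with sh64 at day 4, 1 of 74197 with sh64 in MV4;11 and 4 of 79198 at day 12, and 207 of 71650 and 160 of 74568 with sh65 in MOLM13 and MV4;11. The gene was selected on its change, so a high rank is given by the choice and is no test. Rows that score the same splice choice are ranked separately. The row for skipping of this exon changed by 89.7 ± 3.4 points at day 4. Ordered by group mean, PSI ran from 2.03% (sh64, day 4), 2.73% (sh64, day 12) and 5.14% (MV4;11 sh64) to 57.5% (MV4;11 sh65) and 59.1% (MOLM13 sh65), and then from 89.8 to 95.8% over the 4 shNT groups. The 3 sh64 groups overlapped, as did the 2 sh65 groups and the shNT groups. The highest MOLM13 sh65 library (81.2%) also overlapped with the lowest day 4 shNT library (80.0%), which is not its own control. In MV4;11, where both hairpins were set against the same shNT libraries, sh64 lay 52.3 ± 6.5 points below sh65.

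A second choice in CCDC88C concerned a short form that ends in its own last exon at chr14:91844985-91846229, of which only 18 bases are coding (CCDC88C-202). The junction to it made up 6.90, 20.5 and 10.0% with sh64 against 22.2, 19.4 and 15.2% with shNT at day 4. It made up 23.8, 30.8, 27.4 and 20% with sh65 in MOLM13 against 35.7, 44.1 and 37.8% with shNT, without overlap, and in the other 3 comparisons hairpin and shNT libraries overlapped. The MOLM13 shNT sets themselves differed on this row. The set used for sh65 averaged 39.2% and the day 4 set 18.9%, with the sh65 mean of 25.5% between them. All 5 changes of this row were negative, from -18.0 ± 10.0 (MV4;11 sh65) to -6.5 ± 4.3 points (day 4), and small beside those of the 442-base exon. The junction that continues into the long form, scored in the same cluster, was higher without overlap in 3 comparisons. It made up 90.8, 62.2 and 80.0% with sh64 against 61.1, 61.3 and 56.5% with shNT at day 4 (18.04 ± 8.05 points), and 80.0, 63.9 and 71.1% with sh64 and 86.2, 68.8 and 66.0% with sh65 against 43.1, 59.3 and 44.9% with shNT in MV4;11 (22.6 ± 6.6 and 24.6 ± 7.8 points). With sh65 in MOLM13 (20.9 ± 7.0 points) and at day 12 (12.4 ± 6.6 points) the groups overlapped.

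The CCDC88C transcript as a whole was more abundant in all hairpin groups. RPKM was 5.95, 6.25 and 6.93 with sh64 against 2.76, 3.04 and 4.50 with shNT at day 4. It was 6.18, 5.49 and 6.43 with sh64 and 4.25, 4.53 and 4.35 with sh65 against 2.52, 2.89 and 3.11 with shNT in MV4;11. In MOLM13 it was 3.80, 4.23, 4.91 and 4.87 with sh65 against 3.12, 2.83 and 3.11 with shNT, and at day 12 it was 5.61, 5.67 and 6.04 with sh64 against 3.69, 3.41 and 3.30 with shNT. No hairpin library overlapped with its shNT set. The ratios of means were 1.86 (day 4), 1.48 (MOLM13 sh65), 2.13 (MV4;11 sh64), 1.54 (MV4;11 sh65) and 1.67 (day 12). By group mean, the sh64 groups had the least of the exon and the most of the transcript, the shNT groups the reverse, and the sh65 groups lay between. Within MOLM13 sh65 the 2 libraries with the most exon (78.0 and 81.2%) had the most transcript (4.91 and 4.87 RPKM).

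**Figure D2:**
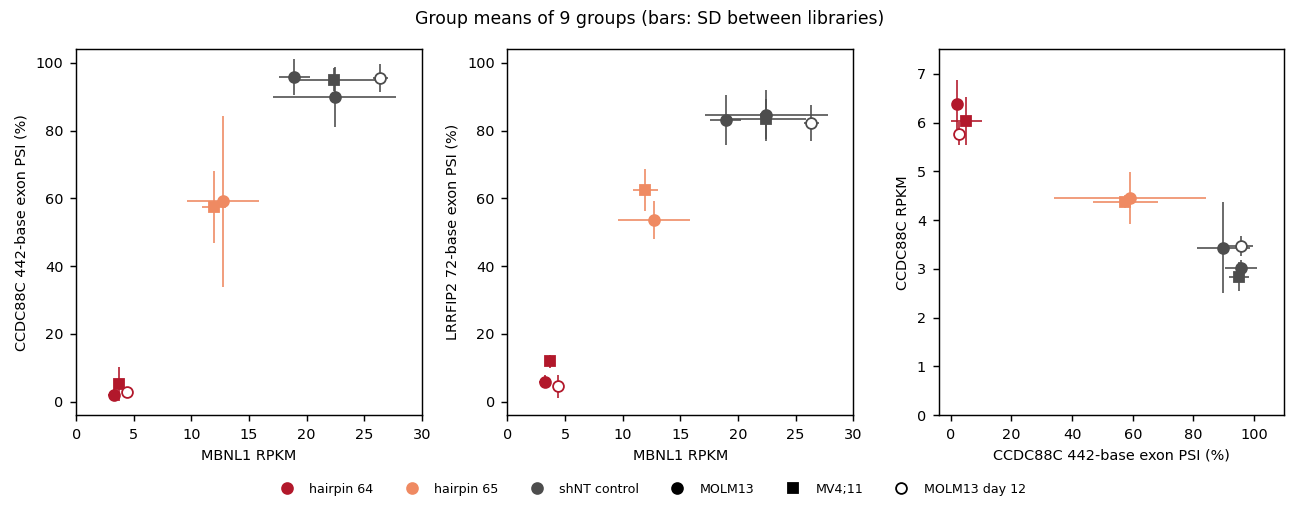
Group means with SD between libraries as bars: PSI in percent of the CCDC88C exon (left) and the LRRFIP2 exon (middle) against MBNL1 RPKM, and CCDC88C RPKM against PSI of its exon (right); circles are MOLM13, squares MV4;11 and open circles day 12. The 3 sh64 groups, the 2 sh65 groups and the 4 shNT groups each lie together, with sh65 between the other 2 sets in all panels.

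LRRFIP2, which binds Dishevelled and also takes part in Toll-like receptor signaling, skipped its 72-base exon in the same hairpin order. PSI was 3.77, 6.06 and 7.69% with sh64 against 76.4, 86.1 and 91.2% with shNT at day 4 (-78.7 ± 4.2 points). It was 12.7, 9.76 and 13.1% with sh64 and 56.2, 62.6 and 68.5% with sh65 against 89.1, 84.1 and 77.1% with shNT in MV4;11 (-71.6 ± 3.5 and -21.0 ± 4.7 points). In MOLM13 it was 45.7, 58.1, 57.1 and 53.9% with sh65 against 91.5, 80.3 and 77.4% with shNT (-29.4 ± 4.7 points), and at day 12 it was 1.34, 7.98 and 4.07% with sh64 against 84.2, 76.2 and 86.2% with shNT (-77.7 ± 3.4 points). Hairpin and shNT libraries did not overlap in any comparison, and the sh65 libraries of both lines lay between the sh64 and the shNT libraries. The MOLM13 sh65 libraries spread less here than for CCDC88C. The library with the least MBNL1 had the lowest inclusion (45.7%), but the one with the most MBNL1 had the next lowest (53.9%). Inclusion thus did not follow MBNL1 across these libraries. In MV4;11 sh64 lay 50.6 ± 3.5 points below sh65. The change ranked 26, 515, 30, 1599 and 51 by size in the order day 4, MOLM13 sh65, MV4;11 sh64, MV4;11 sh65 and day 12. These ranks have the same limits as those of CCDC88C.

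The LRRFIP2 transcript itself differed less between groups than its exon. RPKM was 3.15, 3.39 and 3.27 with sh64 against 4.16, 4.00 and 4.28 with shNT at day 12, and 2.83, 2.67 and 2.81 with sh64 against 3.52, 3.22 and 3.06 with shNT in MV4;11, both without overlap. In the other 3 comparisons the groups overlapped. The ratios of means were 0.874, 1.02, 0.849, 1.04 and 0.789 in the order day 4, MOLM13 sh65, MV4;11 sh64, MV4;11 sh65 and day 12. After quantile normalization the 2 sh65 changes were slightly negative (log2 -0.06 in MOLM13 and -0.04 in MV4;11).

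Splicing rows of other genes with the most similar changes in PSI were found by the mean absolute difference of their changes over the 5 comparisons, among 66277 rows tested in all of them. Nearest to the CCDC88C exon were events in PLD1, a phospholipase D (11.0 points apart), FGFR1, a fibroblast growth factor receptor (11.1), DNM1, a dynamin (11.8), CIT, the citron kinase (12.3), and MDM1 (12.9). Nearest to LRRFIP2 were a cassette exon of MBNL1 itself (4.96 points), an exon of MTMR1, a phosphoinositide phosphatase (5.00), DNM1 (5.28), CIT (5.68) and ACOT9, an acyl-CoA thioesterase (6.36). Not all of these rows score inclusion of an exon. The DNM1 and MDM1 rows score splicing of an intron, and the FGFR1 and MBNL1 rows the longer junction that passes over the exon. The 5 events nearest to CCDC88C changed by -74.4 to -66.7 points with sh64 in MV4;11, where CCDC88C changed by -89.9, and by -35 to -15.9 points with sh65 in MOLM13, where it changed by -36.7. None of these genes is a Wnt component of the list used below.

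NKD2, an antagonist that binds Dishevelled, was lower in RNA level with sh64 in MOLM13. RPKM was 6.29, 7.05 and 7.44 with sh64 against 21.6, 27.4 and 39.7 with shNT at day 4, and 5.10, 5.07 and 5.36 with sh64 against 14, 14.8 and 12.9 with shNT at day 12, without overlap. The ratios of means were 0.234 and 0.373. With sh65 in MOLM13 the groups overlapped, at 22.7, 22.1, 26.8 and 28.2 RPKM with sh65 against 21.3, 30.8 and 24 with shNT. In MV4;11 it was 22.8, 20.7 and 19.1 with sh64 and 42.7, 37.6 and 31.6 with sh65 against 15.7, 18.1 and 39.3 with shNT, where 1 control library (replicate 3) lay far above the other 2. Without that library the log2 changes in MV4;11 were 0.29 with sh64 and 1.09 with sh65, where they were -0.10 and 0.70 with it. The sh64 change in MV4;11 was 1.81 ± 0.42 log2 units above that in MOLM13 at day 4, and sh64 lay 0.80 ± 0.11 log2 units below sh65 within MV4;11. Log2 changes here and below are of RPKM + 1, which makes changes of low genes smaller.

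Ordered by group mean, NKD2 ran from 5.18 RPKM (sh64, day 12) and 6.93 (sh64, day 4) over 13.9 (shNT, day 12) and 20.8 (MV4;11 sh64) to 24.4 (MV4;11 shNT), 24.9 (MOLM13 sh65), 25.4 (its shNT), 29.6 (shNT, day 4) and 37.3 (MV4;11 sh65). From MV4;11 sh64 upward neighbouring groups overlapped. The MOLM13 shNT libraries of day 12 lay below those of day 4. The 2 days were sequenced on different instruments (NovaSeq at day 12, HiSeq otherwise), so day and instrument cannot be told apart there, while each sh64 group was set against the shNT set of its own day. All 9 PSI rows of NKD2 were measured in every library, and their changes lay between -8.2 and 8.1 points. The row with the largest change, splicing of 1 intron, was 71.4, 72.7 and 69.1% with sh64 against 82.1, 76.9 and 79.0% with shNT at day 12 (-8.2 ± 1.7 points) and overlapped in the other 4 comparisons.

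**Figure D3:**
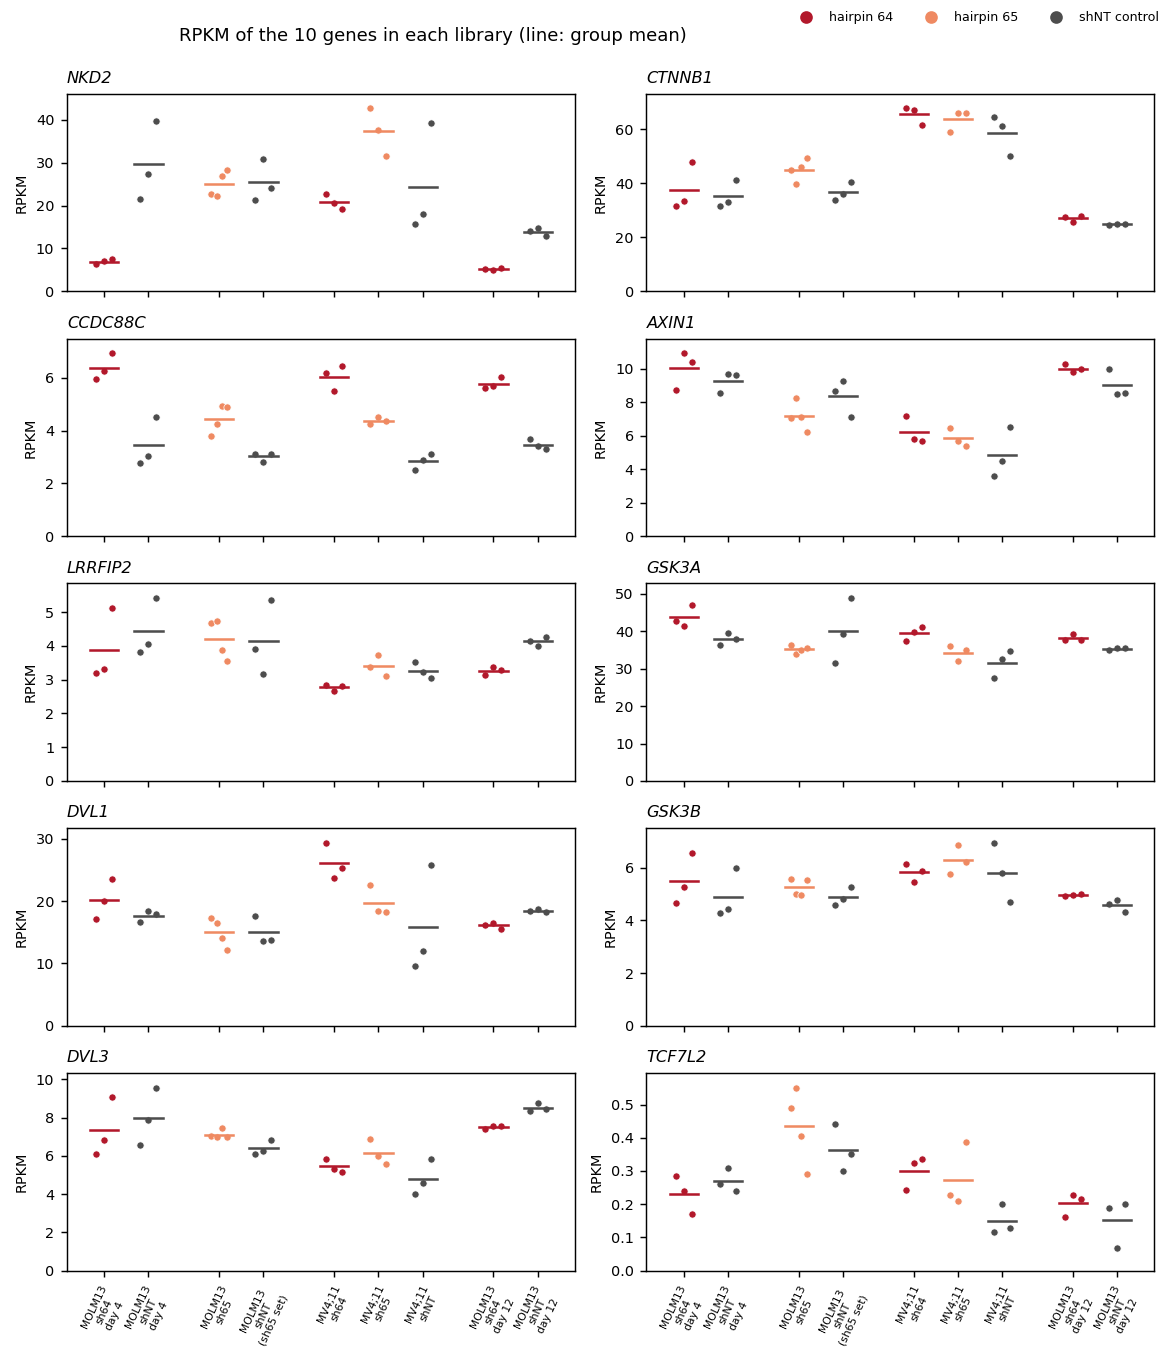
RPKM (vertical axes, starting at 0) of the 10 genes in each of the 28 libraries, by group; points are libraries and lines group means. NKD2 is low in the sh64 libraries of MOLM13 at both days, CCDC88C is higher in all hairpin groups than in their shNT groups, and TCF7L2 stays at 0.551 or less.

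The 7 partners were tested, since they were added as pathway partners and not for a change. The genes and tests were nevertheless chosen with earlier results of these data known. A PSI row was called where limma gave p of at most 0.01 before adjustment and the difference was over 10 points, and a gene at the same p with a 1.5-fold change of RPKM, both after the thresholds of the methods, and adjusted p-values are Benjamini-Hochberg values over all rows or genes. Of the PSI rows of all genes 1.73% were called with sh64 at day 4, 1.28% with sh65 in MOLM13, 1.64% with sh64 in MV4;11, 0.866% with sh65 in MV4;11 and 2.34% at day 12. In the same order 2 of 27, 0 of 27, 0 of 27, 0 of 27 and 3 of 29 tested rows of the 7 genes were called, all in DVL1. For the 3 selected genes the counts were 6, 4, 6, 3 and 6 of 37 rows, from which nothing is read. Genes with at least 1 called row were 7.75, 6.28, 7.89, 4.76 and 10.2% of all genes with a tested row, and 1 of the 5 partners with a tested row at day 4 and at day 12. Rows of a cluster share junctions, so the 2 DVL1 rows of day 4 are 1 splice choice read from either side.

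DVL1 used its downstream 5′ splice site more with sh64 in MOLM13. PSI of this site was 41.8, 45.3 and 38.2% with sh64 against 25.0, 25.2 and 21.9% with shNT at day 4, and 40.7, 41.7 and 35% with sh64 against 21.2, 20.5 and 22.3% with shNT at day 12. Neither pair of groups overlapped, and both changes passed the call (17.7 ± 2.2 points, unadjusted p = 0.000823, limma adjusted p = 0.111; 17.8 ± 2.0 points, unadjusted p = 0.000578, limma adjusted p = 0.0523). Both missed an adjusted p of 0.05, and they rest on the unadjusted rule. The change at day 12 differed from that at day 4 by 0.02 ± 3.06 points (limma interaction, adjusted p = 1.0).

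Elsewhere the DVL1 site did not pass the call. PSI was 12.6, 28, 27.3 and 29.7% with sh65 in MOLM13 against 21.7, 28.4 and 25.7% with shNT (-0.86 ± 4.77 points, limma adjusted p = 1.0). The sh65 library at 12.6% was the one with the least MBNL1 (8.26 RPKM), and it lay opposite to the rise with sh64. In MV4;11 PSI was 36.7, 29.2 and 43.8% with sh64 and 18.5, 22.8 and 20.8% with sh65 against 29.7, 43.1 and 18.8% with shNT, whose libraries spread over the range of both hairpins. The changes there were 6.0 ± 7.8 points (limma adjusted p = 0.985) and -9.8 ± 6.8 points (limma adjusted p = 0.968). Set against each other, the MV4;11 hairpin groups did not overlap and sh64 lay 15.9 ± 4.2 points above sh65 (unadjusted p = 0.0159, limma adjusted p = 0.524). The sh64 change in MV4;11 minus that in MOLM13 was -11.7 ± 8.3 points (limma adjusted p = 1.0), so a difference between lines was not detectable with these libraries.

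A second DVL1 choice was a 38-base exon at chr1:1272398-1272435, present in 1 of 3 coding transcripts that span it (DVL1-205) and not a multiple of 3 bases long. The junction that passes over it made up 83.3, 88.6 and 84.1% with sh64 against 100, 98.7 and 99.2% with shNT at day 12, a called change of -13.9 ± 1.6 points (limma adjusted p = 0.0527). At day 4 it made up 87.9, 79.0 and 96.0% with sh64 against 98.0, 100 and 96.2% with shNT (-10.4 ± 4.8 points, limma adjusted p = 0.779). It was at 95.5% or more in the remaining 5 groups. Among these, the MV4;11 sh64 libraries lay below their shNT libraries without overlap (-2.9 ± 0.8 points, limma adjusted p = 0.434, not called). The difference between the days was -3.5 ± 5.1 points (limma adjusted p = 1.0).

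**Figure D4:**
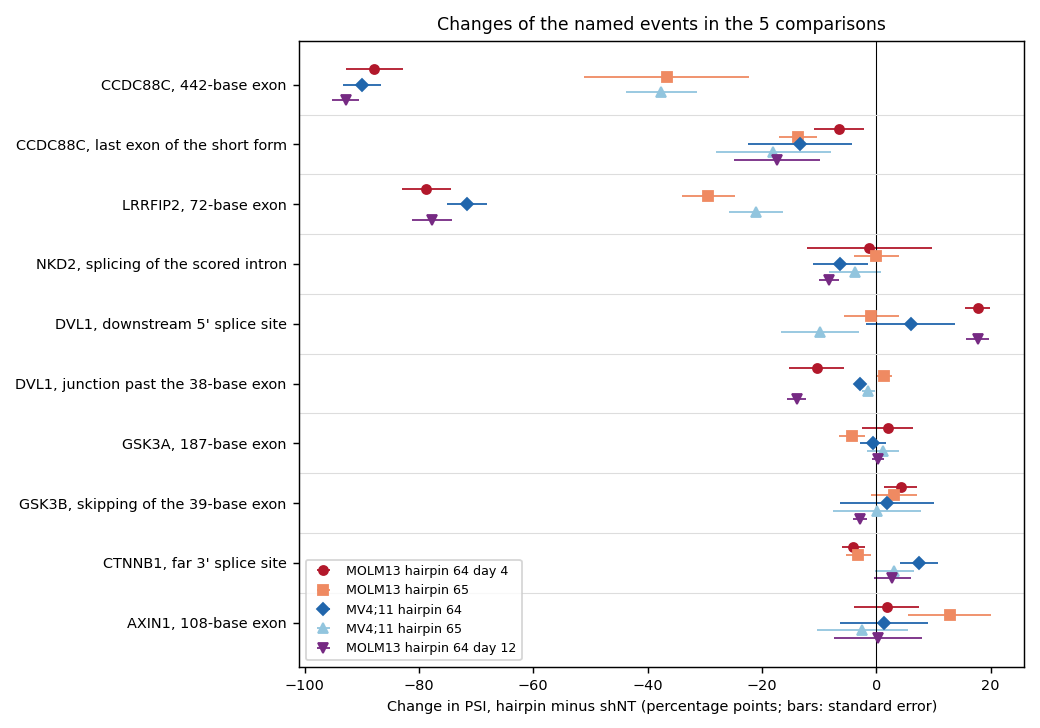
Change in PSI in percentage points (horizontal axis, hairpin minus shNT) of 10 named events of 8 genes in the 5 comparisons; symbols are fitted changes and bars standard errors. The CCDC88C and LRRFIP2 exons lie between -92.8 and -21.0 points, the DVL1 site at 17.7 and 17.8 points with sh64 in MOLM13, and the GSK3A, GSK3B, CTNNB1 and AXIN1 events between -4.2 and 12.8 points.

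Expression of the partners gave no call in any comparison. Of all genes 1.33% were called higher and 1.09% lower with sh64 at day 4, 1.76 and 1.48% with sh65 in MOLM13, 3.89 and 2.62% with sh64 in MV4;11, 1.78 and 1.85% with sh65 in MV4;11, and 3.27 and 2.25% at day 12. 6 of the 7 partners passed the filter of a mean of 1 RPKM and 0 of these 6 were called, while 0, 1, 2, 0 and 4 of them had an unadjusted p under 0.05, where 10.3, 18.2, 33.9, 21.6 and 56.7% of all tested genes had one. At day 4 same-numbered libraries varied together, and with the replicate number as a block 729 genes were called in place of 249 there, still with none of the 6 among them. Quantile normalization shifted the balance of calls over all genes, from 179 higher and 150 lower to 118 and 179 with sh65 in MOLM13, from 396 and 267 to 300 and 350 with sh64 in MV4;11, and from 181 and 189 to 119 and 273 with sh65 in MV4;11, and called none of the 6.

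Both Dishevelled genes were slightly lower with sh64 at day 12. DVL1 RPKM was 16.2, 16.5 and 15.6 with sh64 against 18.4, 18.7 and 18.3 with shNT at day 12 (log2 change -0.19 ± 0.04, limma adjusted p = 0.00592), without overlap but under the 1.5-fold limit. DVL3 RPKM was 7.42, 7.55 and 7.58 with sh64 against 8.37, 8.74 and 8.45 with shNT at day 12 (-0.16 ± 0.04, limma adjusted p = 0.0102), also under that limit. With a fit on all 9 groups neither passed an adjusted p of 0.05. In MV4;11 DVL1 RPKM was 29.3, 23.7 and 25.3 with sh64 and 22.6, 18.3 and 18.3 with sh65 against 9.66, 12.0 and 25.8 with shNT. The log2 changes were 0.80 ± 0.30 (limma adjusted p = 0.112) and 0.41 ± 0.31 (0.458), and the third shNT library overlapped with both hairpins. Without it they were 1.2 (limma adjusted p = 0.000209) and 0.81 (0.00363), both past the call. In MOLM13 with sh65, at day 4 and for DVL3 in MV4;11 the log2 changes of the Dishevelled genes lay between -0.11 and 0.31.

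The destruction complex genes gave no call. GSK3A was among the highest of the 10 genes, with 37.6, 39.4 and 37.6 RPKM with sh64 against 35, 35.5 and 35.5 with shNT at day 12 (log2 change 0.11 ± 0.04, limma adjusted p = 0.0512) and 37.4, 39.9 and 41.1 with sh64 against 27.4, 32.5 and 34.6 with shNT in MV4;11 (0.32 ± 0.12, limma adjusted p = 0.109). GSK3B lay between 4.27 and 6.94 RPKM in all libraries and its log2 changes between 0.02 and 0.14. AXIN1, the scaffold, lay between 3.56 and 10.9 RPKM, and its log2 changes between -0.19 and 0.33, none called. A 108-base AXIN1 exon (chr16:341190-341297, present in the principal transcript) had its largest change with sh65 in MOLM13, 47.9, 49.1, 33.3 and 50% with sh65 against 46.7, 26.4 and 23.7% with shNT, which overlapped (12.8 ± 7.3 points, limma adjusted p = 0.788). A 39-base GSK3B exon (chr3:119585437-119585475) was skipped in 71.7 to 98.1% of its junction reads over all libraries, with changes of -2.9 to 4.3 points. A 187-base GSK3A exon (chr19:42736648-42736834) was included at 86.6 to 100%, with changes of -4.2 to 2.0 points.

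CTNNB1 was the most abundant of the 10 genes in MV4;11. RPKM was 67.7, 66.9 and 61.7 with sh64 and 59.0, 66.0 and 66.0 with sh65 against 64.5, 61.3 and 49.9 with shNT there, and 27.5, 25.8 and 27.9 with sh64 against 24.4, 24.8 and 25.1 with shNT at day 12 (log2 change 0.12 ± 0.04, limma adjusted p = 0.0499, not a 1.5-fold change). In MOLM13 it was 44.9, 39.6, 46.1 and 49.5 with sh65 against 33.9, 36.0 and 40.4 with shNT (0.29 ± 0.12, limma adjusted p = 0.269). It has 2 alternative 3′ splice sites 159 bases apart, both within untranslated sequence in 28 transcripts. Use of the far site was 50.8, 52.7 and 54.8% with sh64 and 46.1, 49.6 and 49.8% with sh65 against 42.7, 52.0 and 41.2% with shNT in MV4;11, which overlapped (7.5 ± 3.4 and 3.2 ± 3.4 points, limma adjusted p = 0.779 and 0.985). The change with sh64 was past the call only when the second shNT library was left out (10.8 points). Of 20 PSI rows under the CTNNB1 name 11 lie outside the annotated gene, and 6 of these were measured. The counts of tested rows above take rows by gene name and were not limited to the annotated gene.

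TCF7L2, the nuclear partner of β-catenin, was near the floor. It had 0.0690 to 0.551 RPKM over the 28 libraries, so no expression test was made. Of its 17 PSI rows 12 were measured in some library, and none in enough libraries to be tested. Hairpin libraries lay above shNT in MV4;11, at 0.241, 0.323 and 0.335 RPKM with sh64 and 0.228, 0.208 and 0.386 with sh65 against 0.117, 0.199 and 0.129 with shNT.

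The wider pathway was read from a list of 96 further Wnt genes, of which 86 had an expression value and 29 to 32 passed the filter in a comparison. Of the ligands 16 had an expression value and 2 of these (WNT6 and WNT10B) exceeded 1 RPKM in any group, as did 4 of the 9 receptors with a value (FZD3, LRP5, LRP6 and RYK). So did 7 of the 11 Dishevelled partners and 7 of the 10 destruction complex genes. Called higher were TLE3, a transcriptional corepressor (log2 change 0.71 ± 0.14, 15.0 RPKM with sh64 against 8.83 with shNT, limma adjusted p = 0.0308), and APC2 (0.65 ± 0.16, 1.85 RPKM with sh64 against 0.849 with shNT, limma adjusted p = 0.0487) with sh64 in MV4;11, and the Dishevelled antagonist DACT3 with sh65 there (1.09 ± 0.16, 3.83 RPKM with sh65 against 1.27 with shNT, limma adjusted p = 0.0268). APC2 passed the filter only through its sh64 group, since its shNT mean lay under 1 RPKM, so nothing is read from its call. Called lower was FBXW11, which recognizes phosphorylated β-catenin for ubiquitination, with sh65 in MV4;11 (-0.59 ± 0.15, 6.09 RPKM with sh65 against 9.76 with shNT, limma adjusted p = 0.0875). The counts of called genes were thus 0, 0, 2, 2 and 0 of 30, 29, 31, 32 and 32 tested in the order used above. Of all genes 3.89% were called higher and 2.62% lower with sh64 in MV4;11, and 1.78 and 1.85% with sh65 there. Nothing particular to the list is read from its counts. The median log2 change of the list was 0.08, 0.12, 0.15, 0.16 and 0.09, where that of all tested genes was -0.0014, 0.05, 0.01, 0.06 and 0.04. None of the 4 targets over 1 RPKM (MYC, CCND1, ZNRF3 and NOTUM) was called.

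Splicing calls within the list fell on 7 genes, among them the Dishevelled kinases CSNK1D and CSNK1E and the corepressors TLE3 and TLE4. In the same order 3 of 26, 1 of 29, 2 of 29, 0 of 29 and 4 of 29 genes had a called row (11.5, 3.45, 6.90, 0 and 13.8%), near the share of all genes given above. CSNK1D, a casein kinase that phosphorylates Dishevelled, had a row on chromosome 17 called in all 3 sh64 comparisons. Its PSI averaged 46.2 ± 3.1% with sh64 against 67.6 ± 1.4% with shNT at day 4 (-21.5 ± 1.9 points, limma adjusted p = 0.0513), 56.8 ± 3.5% with sh64 against 73.0 ± 5.5% with shNT in MV4;11 (-16.2 ± 3.6 points, limma adjusted p = 0.335) and 56.4 ± 0.6% with sh64 against 72.9 ± 1.3% with shNT at day 12 (-16.5 ± 0.8 points, limma adjusted p = 0.00579; means ± SD, n = 3 each). With sh65 the change was 1.9 ± 2.5 points in MOLM13 and -2.4 ± 3.6 points in MV4;11, and sh64 lay 13.9 ± 2.8 points below sh65 in MV4;11 (unadjusted p = 0.00582, limma adjusted p = 0.362). A further CSNK1D row in the same cluster, splicing of an intron, was called at day 4, at 64.4 ± 4.3% with sh64 against 86.7 ± 6.5% with shNT (-22.3 ± 4.3 points, limma adjusted p = 0.267). Its changes in the other 4 comparisons lay between -12.9 and -10.0 points and were not called. CBY1, a β-catenin antagonist, included a cassette exon at 30.8 ± 5.2% with sh64 against 64.3 ± 9.2% with shNT in MV4;11 (-33.5 ± 5.8 points, limma adjusted p = 0.216), while in the other comparisons no change was called (9.2 ± 15.5 points at day 4, -16.3 ± 9.1 with sh65 in MOLM13, -17.8 ± 10.6 with sh65 in MV4;11 and -24.5 ± 8.2 at day 12). The MOLM13 shNT sets differed widely on this row, with means of 25.4% (day 4), 60.9% (second set) and 45.7% (day 12). At day 12 CTNNBIP1, which blocks binding of β-catenin to TCF factors, included a cassette exon at 55.1 ± 4.5% with sh64 against 34.6 ± 3.9% with shNT (20.6 ± 3.3 points, limma adjusted p = 0.107). The remaining calls were in TLE4 (12.7 points) and FZD3 (-10.9 points, where 1 sh64 library had no value) at day 4, and TLE3 at day 12 (14.0 points). FZD3 averaged 63.8% with sh64 and 74.7% with shNT at day 4, but 58.0% in the second MOLM13 shNT set and 61.5% in that of day 12. In CSNK1E the called rows were of different introns. With sh65 in MOLM13 the row scored reads into an intron (17.5 points, at 19.9% with sh65 against 2.43% in its shNT set, where the day 4 shNT set averaged 28.5%). That row changed by -0.62 ± 2.67 points at day 12. The row called at day 12 scored the spliced junction of another intron (13.4 points). Limma adjusted p of these calls lay between 0.0903 and 0.355.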

How the data were processed

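RNA-seq of 28 libraries in 9 groups was analysed from deposited tables. Per the study's methods, reads were aligned with STAR to GRCh37 (hg19). The deposited gene values are RPKM, computed by the authors with AltAnalyze 2.1.1 and Ensembl 72. The authors also deposited PSI as a fraction of junction reads per splicing event, computed with MultiPath-PSI in the same software, which is printed here as a percentage. Libraries were made with a TruSeq kit and sequenced on a HiSeq instrument, or on a NovaSeq at day 12. Groups came from the sample labels, and genes were matched by Ensembl identifier. The 10 genes, the Wnt list and the tests were chosen with earlier results of these data known.

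Each hairpin group was set against its own shNT libraries with moderated 2-group tests in limma 3.58.1 (R 4.3.3), on PSI for rows with values in over 50% of libraries in both groups and on log2(RPKM + 1) for genes with a mean of at least 1 RPKM in either group. Calls needed p of at most 0.01 before adjustment and either over 10 points or a 1.5-fold change. Benjamini-Hochberg adjustment ran over all rows or genes. The scripts were tested on simulated data. Named were all 10 genes, up to 4 events per gene (those called in most comparisons, then those with the largest mean change), up to 5 called genes of the Wnt list per comparison on expression and on splicing, and the 5 nearest events of CCDC88C and of LRRFIP2. Alternatives were other thresholds, filters, pseudocounts and scaling, a fit on all 9 groups, replicate blocks and leaving out libraries.

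Replicate numbers were checked for pairing by correlating deviations from group means. At day 4 same-numbered libraries varied together (expression r 0.799 to 0.882, PSI r 0.105 to 0.300), in the other comparisons they did not (expression r -0.645 to 0.0561). Sequences and annotation were read from GRCh37 with GENCODE release 44 using pysam 0.24.0 and Python 3.11.15 (pandas 2.3.3, numpy 2.4.6), and figures drawn with matplotlib 3.10.9. No fold changes or p-values of the authors were used. Some marker genes of other blood cell types are not reported here.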

Additional observations from a re-analysis of the deposited data

Results flagged for a closer look

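In the group of 4 MOLM13 sh65 libraries, 1 library stood apart from the other 3 in 4 values, by a gap that passed Dixon's 95% critical value. DVL3 was at 7.48 RPKM in 1 library against 7.02, 6.99 and 6.96 in the others (gap 0.880 of the range). The upstream 5′ splice site of DVL1 had a PSI of 87.4% in 1 library against 72.0, 72.7 and 70.3% (0.858). The DVL1 junction that passes over the 38-base exon was at 96.2% against 99.5, 100 and 100% (0.855). The AXIN1 108-base exon was at 33.3% against 47.9, 49.1 and 50% (0.872). Chance gives about 1 such library in 20 groups. The library that stands apart is replicate 1 for the DVL1 splice site, replicate 2 for the DVL1 junction, and replicate 3 for DVL3 and AXIN1. The other groups hold 3 libraries each and were not examined in this way.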

How the results depend on the processing

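In the order day 4, MOLM13 sh65, MV4;11 sh64, MV4;11 sh65 and day 12, a difference over 20 points left 641, 358, 615, 281 and 833 called PSI rows of 1246, 916, 1215, 646 and 1852, and an adjusted p of 0.05 or less 193, 19, 206, 14 and 619. Either rule left 0 of the DVL1 rows called at day 4 and at day 12, where 2 and 3 were called. With a fit on all 9 groups 2230, 1700, 2059 and 1210 rows were called in the first 4 comparisons. Among genes, an adjusted p of 0.05 or less left 0 at day 4 (1055 had an unadjusted p under 0.05, and 249 were called), 1 of 329 with MOLM13 sh65 and 170 of 370 with MV4;11 sh65. No filter on low values gave 160, 343 and 221 genes with MOLM13 sh65, MV4;11 sh64 and MV4;11 sh65, and a pseudocount of 0.1 gave 583 genes in place of 370 with MV4;11 sh65 and 870 in place of 557 at day 12. The fit on all 9 groups called 490 genes at day 4, and 1 of the 7 partners, DVL1, with MV4;11 sh64. The replicate block called 729 genes at day 4 and changed no call of the partners. In the other comparisons libraries share only a number, and the block left 830, 475 and 1311 rows with MV4;11 sh64, MV4;11 sh65 and at day 12, and no library correlated best with its own number. For MOLM13 sh65 no paired analysis was possible, because its labels and those of its shNT set share fewer than 2 replicate numbers. Leaving out 1 library at a time, called rows ranged over 991 to 1232, 705 to 1523, 993 to 1609, 536 to 849 and 1554 to 1655, and called genes over 123 to 373, 157 to 904, 389 to 1953, 256 to 1338 and 530 to 608. Without the third MV4;11 shNT library 1953 and 1338 genes were called, DVL1 among them, and without the first shNT library of the MOLM13 sh65 set 1523 rows and 904 genes. Fewer genes were called without library 2 or 3 of that set (175 and 157), without MOLM13 sh65 replicate 3 or 4 (200 and 190), without MV4;11 shNT replicate 1 or 2 (389 and 398, sh64), and at day 4 without sh64 replicate 1 or 2 (165 and 148) or shNT replicate 1 or 2 (123 and 128). Among the partners the counts ranged over 0 to 1 rows with MV4;11 sh64 and 0 to 1 genes with either MV4;11 hairpin. The DVL1 rows stayed called at both days when any 1 library was left out. The causes of these shifts were not tested.

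The junction reads behind a PSI value and the read totals are unknown, so how much of the spread between libraries is counting error could not be separated.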
